A study of Mus musculus with 45 samples.

Results

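Fatty acid uptake and beta-oxidation in cultured macrophages were followed through a list of 40 genes, out of 29307 genes in the count table. The genes were chosen by function, with earlier results of these data known, and matched by gene symbol. All 40 passed the filter on low counts, which kept 12905 genes, so every member was tested. The libraries came from bone marrow-derived macrophages of C57BL/6N mice aged 6 to 10 weeks, grown for 6 days with the growth factor M-CSF. Mice carried 1 of 3 knock-in forms of Famin, an enzyme of purine metabolism: p254I, the human non-risk form; p254V, a human risk form; and p284R, a form that causes monogenic disease. Cells of 5 mice per genotype were either left unstimulated (M0), treated for 24 h with IFN-γ (50 ng/mL) and LPS (20 ng/mL) (M1), or treated for 24 h with IL-4 (20 ng/mL) (M2), which gave 45 libraries. No mouse with an unedited Famin gene is among these libraries, so p254I is the reference for genotype, and counts per gene do not show which form a library carries.

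Long-chain fatty acids enter a cell through transport proteins, travel in the cytosol on fatty acid binding proteins, and are also released from stored lipid by lipases. Acyl-CoA synthetases join them to coenzyme A, the carnitine shuttle carries them into mitochondria, and repeated rounds of dehydrogenation, hydration, dehydrogenation and thiolysis shorten them, with electrons passed on through the electron transfer flavoprotein. Peroxisomes shorten very long and branched chains. In macrophages the nuclear receptor PPARγ and IL-4 signalling are known for their ties to lipid handling, and the M2 state for its use of fatty acids as fuel.

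Libraries held 17239009 to 43740283 counted reads (median 27553642), and every level below is in CPM, a read count scaled to the TMM-adjusted library total. The summed level of 6 macrophage markers was 19239 to 32843 CPM in M0, 10042 to 13779 in M1 and 9532 to 13786 in M2. The sum was lower in every treated library than in any M0 library, and Lyz2 was its largest part (median 17251 CPM in M0). Adgre1, Csf1r, Cd68 and Lyz2 had lower medians in M1 and M2 than in M0. Itgam had medians of 299, 156 and 363 CPM in M0, M1 and M2, and Mertk 207, 203 and 75.5 CPM. The summed level of 4 M1 markers ran from 999.6 to 5445 CPM in M1, nearly all of it Cxcl9, and up to 9.04 CPM elsewhere, although Il12b, an M1 marker, stayed at or below 0.201 CPM in every library. Adipocytes use many of the same genes. Of 5 adipocyte markers, Lep and Cfd were at 0 in all 45 libraries, Plin1 and Cidec did not exceed 0.132 CPM, and Adipoq was at 0 in M1 and reached 2.03 CPM in M2. Summed low markers of other cells moved with polarization, mostly through 1 gene of each list. The 2 dendritic cell markers summed to 0.313 to 1.29 CPM in M0, at most 0.707 in M1 and 3.83 to 12.5 in M2. Zbtb46 had medians of 0.578 CPM in M0 and 7.34 in M2, and Flt3 0.083 and 0.095. The 4 stromal markers, mostly Col1a1, summed to 9.62 to 43.6 CPM in M0, 2.61 to 9.26 in M1 and 3.67 to 14.5 in M2. The 2 endothelial markers summed to 2.58 to 8.75, 3.4 to 8.56 and 7.68 to 21.8 CPM. Pecam1 had medians of 5.24 CPM in M0 and 13.6 in M2, and Cdh5 0.509 and 0.249. The 4 neutrophil markers, mostly S100a8, summed to 6.95 to 71.5, 10.2 to 34.9 and 5.07 to 19.5 CPM. B cell, T cell and erythroid markers stayed at or below 0.337 CPM. The part of such cells in the results was not tested. An M1 library, from p254I mouse 5, held M2 markers that the other M1 libraries lacked, with Arg1 at 40.8 CPM and Retnla at 49.1 CPM against at most 0.912 and 0.249 CPM. The 6 counts of members that rose or fell between polarizations were the same without that library.

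Each member was compared between M0, M1 and M2 with edgeR's quasi-likelihood test, as the mean of the differences within the 3 genotypes, and called at a Benjamini-Hochberg adjusted p under 0.05 over all genes tested. In M1, 11 of 40 members rose and 16 fell against M0, where 37% of all genes tested rose and 40.3% fell. In M2, 23 members rose and 8 fell against M0, where 36.8% of all genes rose and 39.6% fell. The median log2 fold change of the members was -0.01 in M1 and 0.20 in M2, beside -0.03 in both for all genes. A log2 fold change of at least 1 was reached in M1 by 2 members that rose and 5 that fell (all genes, 8.3% and 13.3%). In M2, 1 member rose and 1 fell by that much (6.18% and 10.3%). These are bulk libraries, in which fewer cells of a kind and less RNA per cell cannot be told apart.

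**Figure D1:**
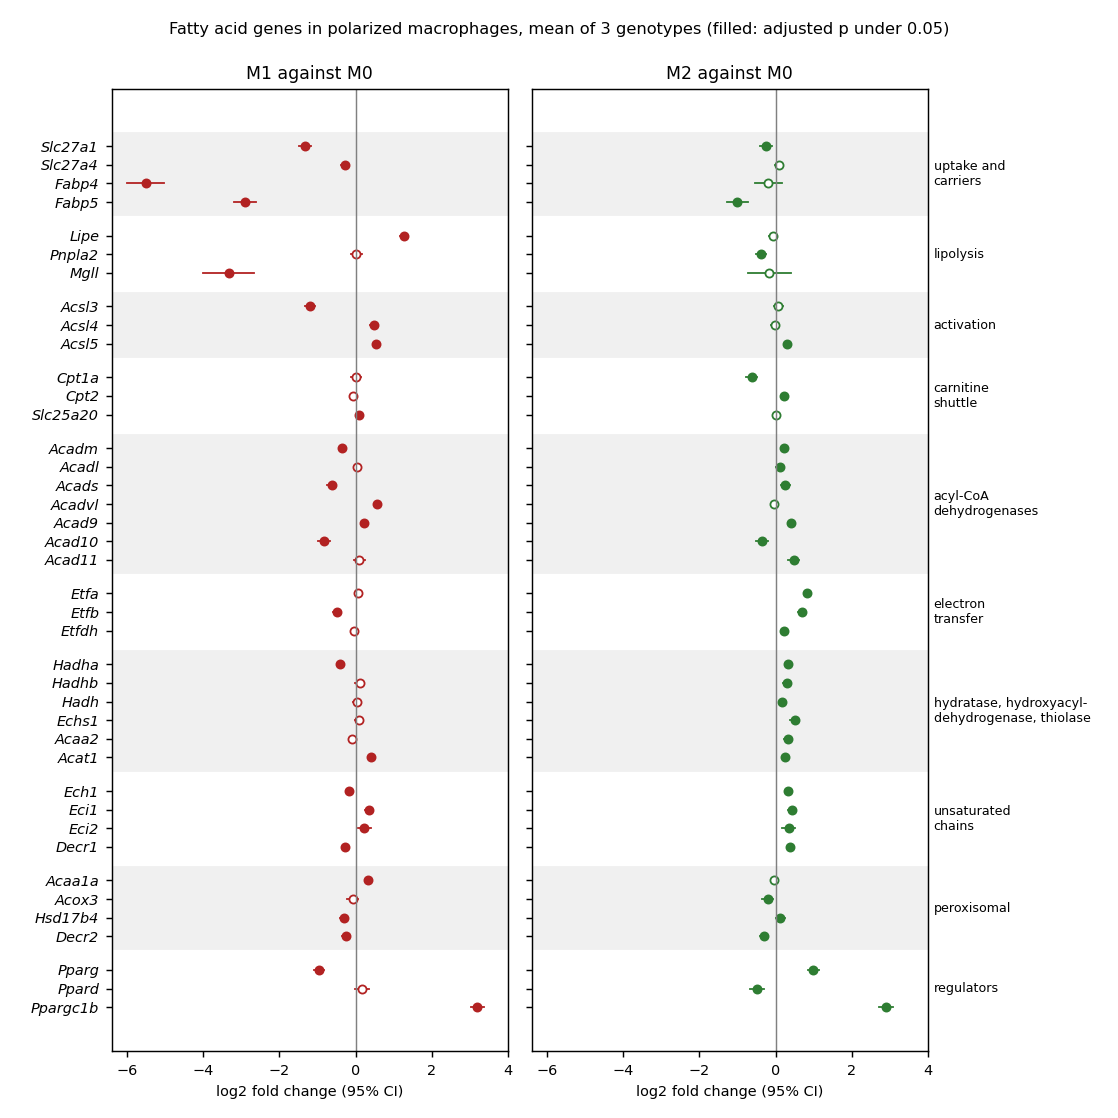
Log2 fold change of each of the 40 members (rows, grouped by role) in M1 against M0 and in M2 against M0, as the mean over 3 genotypes with 95% confidence intervals; filled points have an edgeR adjusted p under 0.05. Fabp4, Mgll and Fabp5 lie farthest to the left in M1, Ppargc1b farthest to the right in both, and the 13 members of the electron transfer, hydratase to thiolase and unsaturated chain groups all lie to the right in M2.

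The 4 uptake and carrier genes all fell in M1. Fabp4, a fatty acid binding protein of macrophages and adipocytes on chromosome 3 (10204088 to 10208576 in GRCm38, minus strand), ran from 37.9 to 123 CPM in M0 (median 57.9, n = 15) and from 0.637 to 4.06 CPM in M1 (median 1.24). No M1 library came near the lowest M0 library, and the 2 highest M1 libraries were p254I mice 4 and 5. The fall was 45.7-fold, a log2 fold change of -5.52 ± 0.24 (SE; edgeR adjusted p = 9.57e-23), and -5.60 without the library of p254I mouse 5. In M2, Fabp4 ran from 31.4 to 96.2 CPM (median 58.2), a range that overlapped M0 almost wholly, and the log2 fold change was -0.19 ± 0.18 (edgeR adjusted p = 0.347).

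Fabp5, another binding protein of the same family, also on chromosome 3 (10012548 to 10016607, plus strand), was the highest member per kilobase of coding transcript in M0, at a median of 247 CPM per kb. It fell in both polarizations. Its levels were 178 to 449 CPM in M0 (median 244), 22.8 to 69.5 in M1 (median 37.5) and 93.8 to 187 in M2 (median 149). M1 did not overlap M0 or M2, and M2 met M0 only at the lower end of M0. Log2 fold changes were -2.90 ± 0.15 in M1 (edgeR adjusted p = 8.2e-21) and -1.01 ± 0.14 in M2 (edgeR adjusted p = 2.02e-08).

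Both fatty acid transport proteins on the list followed in M1 by smaller amounts. Slc27a1 (FATP1) ran from 176 to 279 CPM in M0 (median 208) and from 70.7 to 113 in M1 (median 86.9), without overlap, a log2 fold change of -1.33 ± 0.08 (edgeR adjusted p = 8.05e-19). In M2 it stood at 153 to 245 CPM (median 190), overlapping M0, with a log2 fold change of -0.24 ± 0.08 (edgeR adjusted p = 0.00406). Slc27a4 (FATP4) fell in M1 (log2 fold change -0.28 ± 0.06, edgeR adjusted p = 2.69e-05), and its M2 value of 0.09 ± 0.06 missed the threshold (edgeR adjusted p = 0.152), which it passed with the replicate number as a block (0.09, edgeR adjusted p = 0.032).

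The 3 lipases of triglyceride breakdown went separate ways. Pnpla2 (ATGL) takes the first acyl chain from a triglyceride, Lipe (hormone-sensitive lipase) the next, and Mgll (monoacylglycerol lipase) the last. Lipe rose in M1, from 22.2 to 37.7 CPM in M0 (median 26.8) to 57.6 to 74.9 CPM (median 64.4), while M2 stayed at 23 to 28.2 CPM (median 26.2). Every M1 library was above every M0 and M2 library. The log2 fold change in M1 was 1.27 ± 0.05, or 2.41-fold (edgeR adjusted p = 4.13e-24), and in M2 -0.05 ± 0.05 (edgeR adjusted p = 0.339).

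Mgll fell in M1 to a level near 1 CPM. It ran from 2.42 to 27 CPM in M0 (median 6.45), from 0.468 to 1.97 in M1 (median 1.03) and from 5.25 to 17.4 in M2 (median 9.14). All M1 libraries were below all others, while M0 spread more widely than M2. The M1 log2 fold change was -3.33 ± 0.33 (edgeR adjusted p = 8.41e-12), and the M2 value of -0.16 ± 0.28 had an edgeR adjusted p of 0.594 and turned to 0.03 with mouse as a block. Pnpla2 stood at a median of 131 CPM in M0 and 132 in M1 (log2 fold change 0.02 ± 0.07, edgeR adjusted p = 0.762) and at 102 in M2, where it fell (-0.39 ± 0.07, edgeR adjusted p = 1.49e-06).

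Among the acyl-CoA synthetases, which activate fatty acids, Acsl3 fell in M1 while Acsl4 and Acsl5 rose. Acsl3, the form tied to lipid droplets, ran from 23.8 to 34.9 CPM in M0 (median 31.2) and from 10.8 to 15.7 in M1 (median 12.7), without overlap, and stood at 24.5 to 39 CPM in M2. Its log2 fold change was -1.20 ± 0.06 in M1 (edgeR adjusted p = 2.76e-21) and 0.08 ± 0.06 in M2 (edgeR adjusted p = 0.225). Acsl4, which favours arachidonic acid, rose by a log2 fold change of 0.48 ± 0.05 in M1 (edgeR adjusted p = 9.21e-12). Acsl5 rose in both states, by 0.54 ± 0.03 in M1 and 0.30 ± 0.03 in M2 on the log2 scale (edgeR adjusted p = 1.75e-20 and 1.95e-12).

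**Figure D2:**
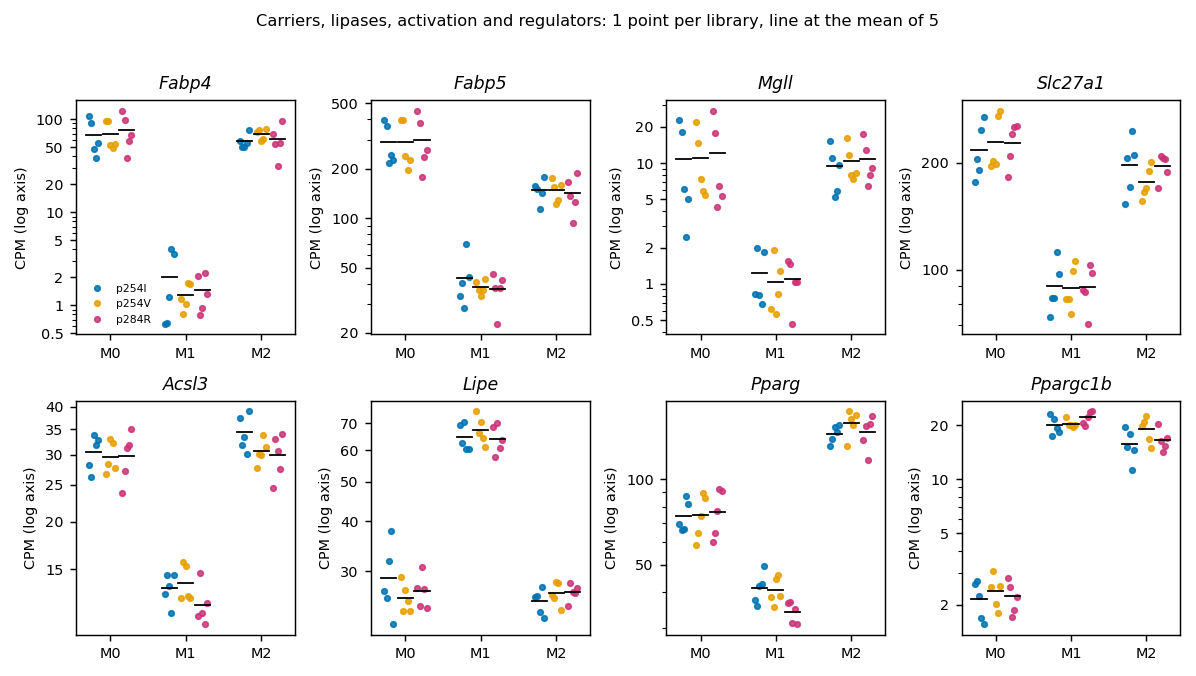
CPM on a log axis of 8 members in M0, M1 and M2; each point is 1 library, coloured by genotype, and lines are means of 5 mice. M1 sits apart and low for Fabp4, Fabp5, Mgll, Slc27a1, Acsl3 and Pparg and apart and high for Lipe, while Ppargc1b is low only in M0.

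In the carnitine shuttle, the outer membrane enzyme fell in M2 and the inner membrane enzyme rose. Cpt1a, the step at which malonyl-CoA controls entry, ran from 184 to 305 CPM in M0 (median 258), from 225 to 268 in M1 (median 244) and from 131 to 180 in M2 (median 155). Every M2 library was below every M0 and M1 library, and the M2 log2 fold change was -0.63 ± 0.07 (edgeR adjusted p = 2.86e-11). The M1 value for Cpt1a was 0.02 ± 0.07 (edgeR adjusted p = 0.801).

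Cpt2, which rebuilds acyl-CoA inside the mitochondrion, had medians of 23.6, 22.3 and 26.9 CPM in M0, M1 and M2. It rose in M2 by a log2 fold change of 0.21 ± 0.04 (edgeR adjusted p = 2.23e-06) and in M1 had -0.06 ± 0.04 (edgeR adjusted p = 0.118). The carrier between them, Slc25a20, had medians of 44.2, 45.9 and 44.7 CPM, and its rise of 0.08 ± 0.04 on the log2 scale in M1 lay at the edge of the threshold (edgeR adjusted p = 0.0463), with the call lost in 9 of 27 alternative settings.

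Of the 7 acyl-CoA dehydrogenases, which open each round of oxidation, those named for a chain length split by it in M1. Acadvl, for very long chains, rose from a median of 71.1 to 107 CPM (log2 fold change 0.56 ± 0.04, edgeR adjusted p = 2.32e-15), and all 90.1 to 118 CPM of M1 lay above the 63.4 to 83 CPM of M0. Acadl, for long chains, had medians of 94.8 and 96.8 CPM (0.03 ± 0.04, edgeR adjusted p = 0.5). Acadm, for medium chains, fell from 71.4 to 56.2 CPM (-0.35 ± 0.03, edgeR adjusted p = 6.67e-14), and Acads, for short chains, from 53.9 to 33.6 CPM (-0.63 ± 0.06, edgeR adjusted p = 8.28e-13).

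In M2 the order was otherwise. Acadm, Acads and Acadl rose by log2 fold changes of 0.22 ± 0.03, 0.26 ± 0.06 and 0.11 ± 0.04 (edgeR adjusted p = 9.29e-09, 9.48e-05 and 0.0204), and Acadvl had -0.03 ± 0.04 (edgeR adjusted p = 0.488). The less common dehydrogenases Acad9 and Acad11 also rose in M2 (0.40 ± 0.04 and 0.47 ± 0.07). In M1, Acad9 rose by 0.21 on the log2 scale, and Acad11 had 0.10 and was not called. Acad10 was among the lowest members, at a median of 6.32 CPM in M0, and fell in both states, by -0.83 ± 0.08 in M1 and -0.36 ± 0.08 in M2 on the log2 scale, with 17.1% of its 50-base stretches shared with other annotated transcripts, nearly all of them of its neighbour Acad12.

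The 3 genes of electron transfer all rose in M2. Etfa, the alpha subunit of the flavoprotein that takes electrons from these dehydrogenases, ran from 45.8 to 65.9 CPM in M0 (median 58.1), from 56.8 to 64.4 in M1 (median 59) and from 85.8 to 110 in M2 (median 104). All M2 libraries were above all others. Its log2 fold change was 0.82 ± 0.04 in M2 (edgeR adjusted p = 9.59e-22) and 0.05 ± 0.04 in M1 (edgeR adjusted p = 0.22).

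Etfb, the partner subunit, moved in both states. It ran from 8.21 to 11.9 CPM in M0, from 6.06 to 8.5 in M1 and from 13.7 to 21.1 in M2, so that M2 stood clear of both other states while M1 and M0 met at their edges. The log2 fold changes were -0.48 ± 0.05 in M1 (edgeR adjusted p = 1.47e-10) and 0.69 ± 0.05 in M2 (edgeR adjusted p = 4.72e-15). Of the 50-base stretches of Etfb transcripts, 44.8% also occurred in another gene, nearly all in the overlapping Gm45233 on the same strand, so the level of Etfb cannot be set against that of Etfa. Etfdh, which hands the electrons to ubiquinone, rose in M2 by 0.22 ± 0.04 (edgeR adjusted p = 1.15e-06) and had -0.04 ± 0.04 in M1 (edgeR adjusted p = 0.323).

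The mitochondrial trifunctional protein, which carries out the last steps for long chains, is built from the subunits Hadha and Hadhb. Their genes start head to head on chromosome 5 with 85 bases between the annotated starts, and that stretch is shown because the starts of both genes border it and point away from each other.

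Hadha to Hadhb, chr5:30155163-30155247, GRCm38.p6, plus strand, GGGCGG in capitals: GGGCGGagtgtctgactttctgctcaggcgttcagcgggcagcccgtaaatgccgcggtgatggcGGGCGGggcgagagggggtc

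The genes on either side of this stretch both rose in M2, and in M1 only Hadha was called. Hadha ran from 147 to 168 CPM in M0 (median 155), from 110 to 131 in M1 (median 116) and from 168 to 217 in M2 (median 202). Its M1 libraries all lay below M0, while M2 and M0 met at the edge (lowest M2 167.60 CPM, highest M0 167.58 CPM). The log2 fold changes were -0.41 ± 0.04 in M1 and 0.33 ± 0.04 in M2 (edgeR adjusted p = 9.96e-14 and 5.08e-11). Hadhb ran from 11.6 to 15 CPM in M0, from 10.4 to 17 in M1 and from 13.5 to 20.6 in M2, all 3 ranges overlapping.

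The Hadhb log2 fold change was 0.30 ± 0.06 in M2 (edgeR adjusted p = 7.93e-06), and the M1 value of 0.11 ± 0.06 missed the threshold (edgeR adjusted p = 0.0851), although 4 of 27 alternative settings called it. A share of 19.7% of the 50-base stretches of Hadhb recurred in other genes, nearly all in the processed pseudogene Gm13910, and how reads with several matches were counted is not given in the sources used here.

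The other enzymes of these steps also rose in M2: Echs1, the short-chain hydratase, by 0.50 ± 0.06, Hadh, the short-chain hydroxyacyl dehydrogenase, by 0.18 ± 0.05, Acaa2, a thiolase, by 0.32 ± 0.05 and Acat1, the acetoacetyl-CoA thiolase, by 0.24 ± 0.04 on the log2 scale. The edgeR adjusted p of these 4 lay between 1.73e-10 and 0.00137. In M1, Acat1 rose (0.39 ± 0.04, edgeR adjusted p = 3.21e-13), and Echs1, Hadh and Acaa2 had 0.09, 0.04 and -0.08 with none called (Echs1 was called with mouse as a block, edgeR adjusted p = 0.014). In 15 of 15 mice the M2 library of Etfa, Etfb, Etfdh, Hadha, Hadhb, Hadh, Echs1 and Acat1 held more than the M0 library of the same mouse, and in 14 of 15 for Acaa2.

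**Figure D3:**
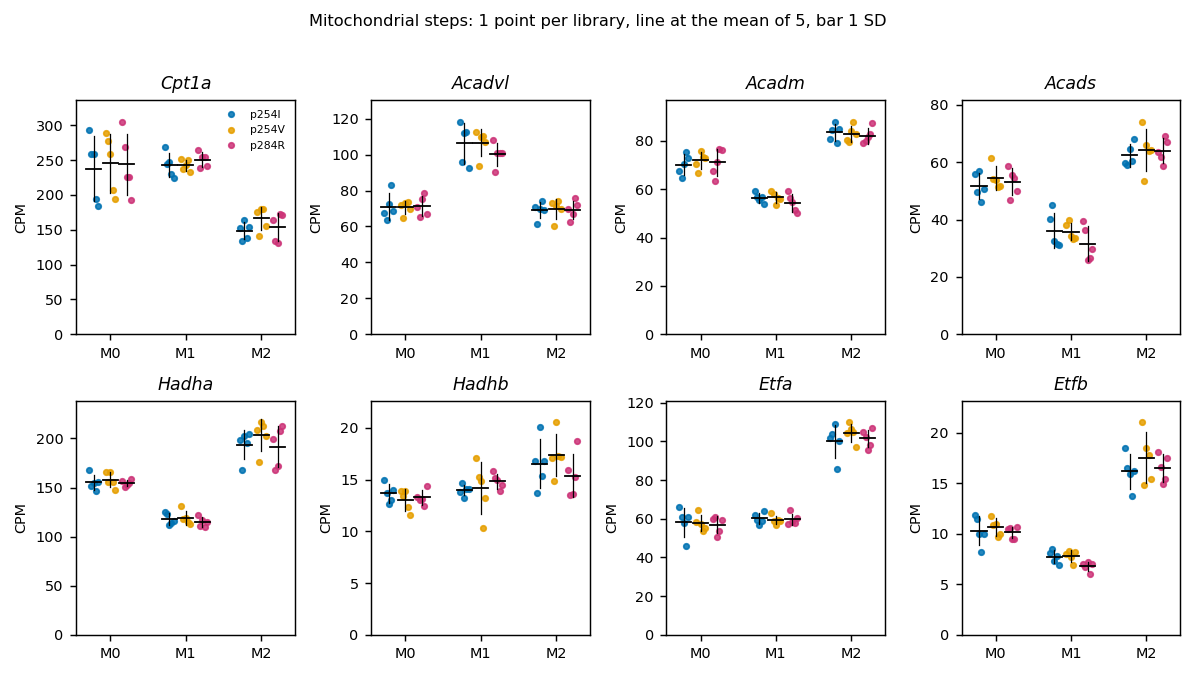
CPM of 8 mitochondrial members in M0, M1 and M2 on linear axes from 0; points are libraries coloured by genotype, lines are means of 5 mice and bars 1 SD. Etfa and Etfb are highest in M2, Hadha steps down in M1 and up in M2 while Hadhb overlaps, Acadvl is high only in M1 and Cpt1a is low only in M2.

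The 4 auxiliary enzymes for unsaturated chains all rose in M2, with log2 fold changes from 0.32 (Ech1) to 0.42 (Eci1). In M1 they parted: the isomerases Eci1 and Eci2 rose by 0.35 ± 0.05 and 0.23 ± 0.09, while Ech1 and Decr1, the dienoyl-CoA isomerase and reductase, fell by 0.17 and 0.29 on the log2 scale (edgeR adjusted p = 2.29e-08, 0.0153, 5.86e-06 and 4.25e-11). Decr1 stood at 23.3 to 31.3 CPM in M1, 31.2 to 34.7 in M0 and 38.8 to 47.5 in M2, so that M2 stood clear of the others and M1 and M0 barely met. With replicate numbers 3 to 5 only, the M2 value of Eci2 was 0.14 and no longer called.

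Peroxisomal members showed no shared direction. Hsd17b4, the multifunctional enzyme, fell in M1 (-0.30 ± 0.05, edgeR adjusted p = 4.23e-06) and rose slightly in M2 (0.13 ± 0.05, edgeR adjusted p = 0.0275). Acaa1a, a peroxisomal thiolase with 12.9% of its 50-base stretches shared with other genes, mostly its close relative Acaa1b, rose in M1 (0.32 ± 0.03, edgeR adjusted p = 4.54e-11). Decr2 fell in both, and Acox3, an oxidase for branched chains, fell in M2 (-0.21 ± 0.07, edgeR adjusted p = 0.00622), with 0.03 when only replicate numbers 3 to 5 were fitted (edgeR adjusted p = 0.73).

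Among the regulators, Pparg moved in opposite directions. It encodes PPARγ, a receptor for fatty acid derivatives and a known regulator of Fabp4, and ran from 58.9 to 92.4 CPM in M0 (median 74.5), from 30.9 to 49.4 in M1 (median 37.7) and from 117 to 174 in M2 (median 155). The 3 states did not overlap. Log2 fold changes were -0.97 ± 0.07 in M1 (edgeR adjusted p = 2.91e-16) and 0.99 ± 0.07 in M2 (edgeR adjusted p = 1.59e-16), each about a factor of 1.95 to 1.99. While Pparg rose in M2 in 15 of 15 mice, Fabp4 was higher in M2 than in M0 in 7 of 15.

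Ppargc1b, the coactivator PGC-1β, was the member that rose most in both states. It ran from 1.56 to 3.08 CPM in M0 (median 2.23), from 17.4 to 23.8 in M1 (median 20.1) and from 11.3 to 22.4 in M2 (median 16.8). All treated libraries were far above all M0 libraries, and M1 and M2 overlapped. The rise was 9.18-fold in M1 (log2 fold change 3.20 ± 0.09, edgeR adjusted p = 1.16e-29) and 7.52-fold in M2 (2.91 ± 0.09, edgeR adjusted p = 9.91e-28). Ppard, the PPARδ gene, fell in M2 (-0.49 ± 0.09, edgeR adjusted p = 1.05e-05), and its M1 value of 0.17 ± 0.09 (edgeR adjusted p = 0.102) was called in 6 of 27 alternative settings, among them mouse as a block (0.19, edgeR adjusted p = 0.0062).

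Read by pair of calls, 8 members fell in M1 and rose in M2 (Acadm, Acads, Hadha, Hsd17b4, Ech1, Decr1, Etfb and Pparg), as did 11.9% of all genes tested. A further 9 rose in M2 with no call in M1 (7.88% of all genes), 6 rose in both (17.1%), and 4 fell in both (20.1%). The pattern of higher in M1 and lower in M2 held 0 members and 11.4% of all genes. With mouse as a block, which takes in that the 3 states come from the same mice, Ppard had that pattern (12.6% of all genes), Acad11 and Echs1 rose in both, and Slc27a4 fell in M1 and rose in M2. Both comparisons share the M0 libraries.

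Set directly against each other, M1 was higher than M2 for 10 members and lower for 24, while 39% of all genes were higher and 40.1% lower. By a log2 fold change of at least 1, 1 member was higher in M1 (Lipe, 1.32 ± 0.05; 11.6% of all genes) and 7 were lower (13%). Those 7 were Fabp4 (-5.33 ± 0.24), Mgll (-3.17 ± 0.33), Pparg (-1.96 ± 0.07), Fabp5 (-1.89 ± 0.14), Acsl3 (-1.27 ± 0.06), Etfb (-1.17 ± 0.05) and Slc27a1 (-1.08 ± 0.08). The edgeR adjusted p of these 8 ran from 2.07e-26 for Pparg to 2.75e-11 for Mgll.

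The M0 libraries differed by replicate number, a number that the labels give and whose meaning is not given in the sources used here. Fabp4 in M0 averaged 109, 95, 46.3, 48.2 and 59 CPM over the 3 mice of numbers 1 to 5, and Mgll 23.8, 16.8, 5.91, 4.92 and 5.29 CPM. Fabp5 averaged 413 and 379 CPM in numbers 1 and 2 and 211 to 237 CPM in the rest, and Cpt1a lay between 190 and 296 CPM with number 1 the highest. For Fabp4, Fabp5 and Mgll, every M0 library of numbers 1 and 2 was above every M0 library of numbers 3 to 5, while for Cpt1a number 3 overlapped.

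**Figure D4:**
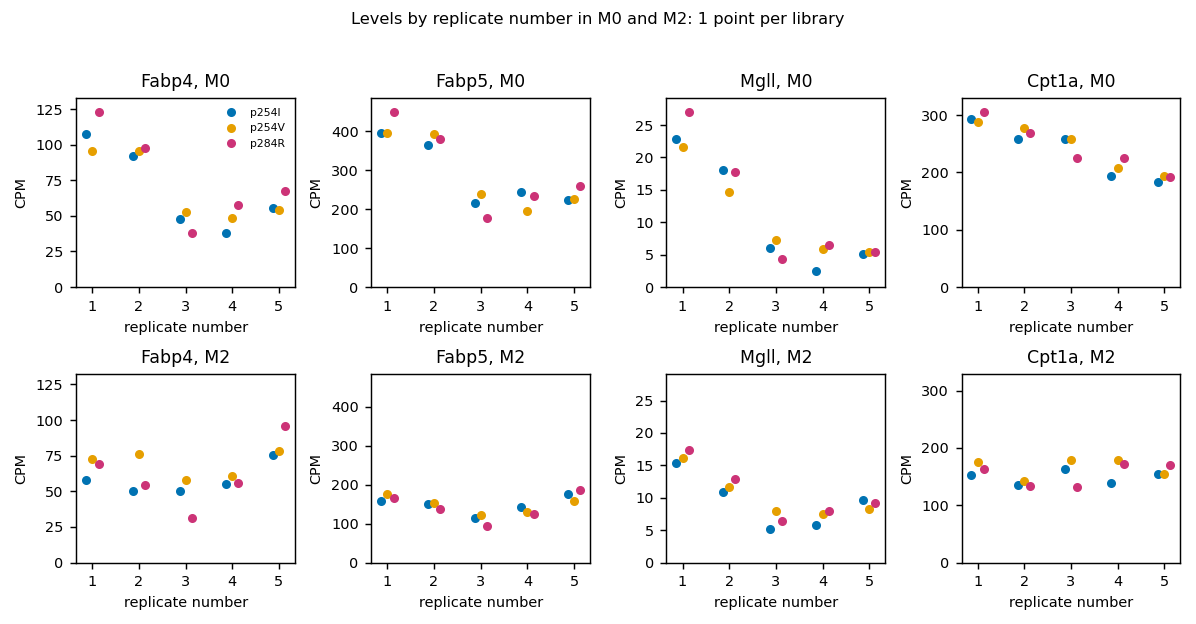
CPM of Fabp4, Fabp5, Mgll and Cpt1a against replicate number in M0 (top) and M2 (bottom), 1 point per library coloured by genotype, with the same axis for both states of a gene. Libraries numbered 1 and 2 are high in M0 for Fabp4, Fabp5 and Mgll in all 3 genotypes, and in M2 they stand apart for Mgll but not for Fabp4 and Fabp5.

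The difference in M0 bears on comparisons with M2. On the scale of log2(CPM + 1), the M2 minus M0 difference of Fabp4 was -0.69, -0.67, -0.02, 0.26 and 0.49 for numbers 1 to 5, and that of Mgll -0.52, -0.47, 0.14, 0.52 and 0.67, so their uncalled means join opposite directions. With numbers 3 to 5 only, the M2 log2 fold change was 0.28 for Fabp4 (not called) and 0.49 for Mgll (edgeR adjusted p = 0.018). For Fabp5 and Pparg the direction was the same at every number, from -1.36 to -0.44 and from 0.77 to 1.24. In M1 against M0, Fabp4 lay between -5.78 and -3.77, Mgll between -3.66 and -1.41, and Lipe between 1.04 and 1.36. Cpt1a, uncalled in M1, had -0.18, -0.16, 0.00, 0.23 and 0.29, and with numbers 3 to 5 only was called (0.16, edgeR adjusted p = 0.033). The part of culture, day or handling in these differences was not tested.

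Other genes of fatty acid handling, 57 in a list that shares no gene with the 40, were read from the same fit, and 49 were tested. In M1, 19 rose (38.8%) and 23 fell (46.9%), beside 37% and 40.3% of all genes, and in M2, 17 rose (34.7%) and 23 fell (46.9%), beside 36.8% and 39.6%. Cd36, the scavenger receptor that takes up fatty acids, had medians of 4470 CPM in M0, 1701 in M1 and 7708 in M2. These were higher CPM than those of any of the 4 uptake and carrier genes, not scaled to transcript length. It fell in M1 (-1.24 ± 0.08, edgeR adjusted p = 2.24e-17) and rose in M2 (0.91 ± 0.08, edgeR adjusted p = 3.48e-13). Plin2, a lipid droplet coat protein, fell in M1 (-1.97 ± 0.08, edgeR adjusted p = 2.41e-24), as did the PPAR target Angptl4 (-3.32 ± 0.19, edgeR adjusted p = 3.72e-19).

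Acsl1, a synthetase absent from the 40, rose in M1 from a median of 59.6 to 256 CPM (2.38 ± 0.11, edgeR adjusted p = 1.52e-21), a larger value than those of Acsl4 and Acsl5. It was also the 1 gene of the 49 called between genotypes. In M1 it ran from 200 to 826 CPM in p284R (median 642), from 176 to 273 in p254I (median 231) and from 190 to 272 in p254V (median 255), so the groups overlapped at the low end of p284R. The log2 fold change within M1 was 1.22 ± 0.19 for p284R against p254I (edgeR adjusted p = 0.00194) and 1.16 ± 0.19 against p254V (edgeR adjusted p = 0.00482). Slc27a3, another transport protein gene, rose in M2 from 0.903 to 16.4 CPM (4.20 ± 0.18, edgeR adjusted p = 4.03e-23). Rxra, whose product pairs with PPARγ on DNA, fell in M1 by 1.62 and in M2 by 0.85 on the log2 scale (edgeR adjusted p = 4.35e-18 and 4.02e-10). Ppara and Ppargc1a had medians at or below 0.0406 CPM in every state and were not tested.

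Promoter sequence was read for the 32 members with a RefSeq window of 250 bases before to 50 after the start. AGGTCA in 2 copies with 1 base between them is the layout bound by PPAR and RXR. It occurred in 0 of the 32, and in 0.0481% of all genes with a window. At so low a share, 0 of 32 cannot show that PPAR sites are absent, and only exact letters were searched. TNAAGGTCA, read by estrogen-related receptors, occurred in 0 (1.43% of all genes), and TTC and GAA with 4 bases between, the STAT6 layout, in 0 (8.01%). At these shares too, 0 of 32 cannot show that such sites are absent. Both strands were searched. GGGCGG, the GC box, occurred in 27 of the 32 (84.4%) and in 38.2% of all genes. That share is over all genes with a window, expressed here or not, while all 32 members passed the filter on low counts. Fabp4, Fabp5, Acad9, Acaa2, Acat1, Hsd17b4, Decr1 and Ppargc1b had no window in the table.

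Between genotypes, no member was called in any of 12 comparisons or 4 interactions of genotype with polarization. The list was chosen with earlier results of these data known, and Acsl1, called for p284R within M1, is not on it. The count of 0 rests in part on that choice. The 12 were p284R against p254I, p254V against p254I and p284R against p254V, each as the mean of M0, M1 and M2 and within each state. Calls were rare over all genes too: 0.0155% for p284R and for p254V against p254I as the mean, 0.263% for p284R against p254I and 0.0775% for p284R against p254V within M1, 0.00775% for p284R against p254I within M2, and 0% in the rest, interactions included. At an unadjusted p under 0.05, edgeR gave 2 members for p284R against p254I as the mean, 0 for p254V against p254I and 4 for p284R against p254V, beside 4.38%, 2.5% and 4.7% of all genes.

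For p284R against p254I as the mean, the 5 members with the smallest p were Acaa1a (log2 fold change 0.08, 95% interval 0.01 to 0.15), Acsl3 (-0.13, -0.25 to -0.01), Acat1 (-0.06, -0.13 to 0.01), Decr1 (-0.05, -0.11 to 0.01) and Ech1 (-0.05, -0.11 to 0.01). Each had an edgeR adjusted p of 1. For p254V against p254I they were Acaa1a (0.07, -0.00034 to 0.14), Ppargc1b (0.15, -0.02 to 0.32), Acad10 (0.13, -0.03 to 0.30), Acsl4 (-0.07, -0.17 to 0.02) and Acsl5 (-0.04, -0.10 to 0.02), also with an edgeR adjusted p of 1. All 40 intervals lay within ±1 in both comparisons, and 39 and 38 of them within ±0.5, with Mgll and Fabp4 the exceptions for p254V and Mgll for p284R.

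Within M1, the 5 smallest p for p284R against p254I belonged to Pparg, Ech1, Decr1, Etfb and Acads, all lower in p284R. Pparg stood at 30.9, 31.1, 34.8, 36.7 and 37 CPM in the p284R mice and at 35.7, 37.7, 42, 42.9 and 49.4 CPM in the p254I mice, so the groups overlapped. The log2 fold change was -0.28 (95% interval -0.52 to -0.04, edgeR adjusted p = 0.628). The highest p254I value belonged to the library that held Arg1 and Retnla, and without it the log2 fold change of Pparg was -0.21. With replicate numbers 3 to 5 only, Pparg had -0.46 and passed the threshold (edgeR adjusted p = 0.045). That subset was chosen after seeing the data and still held the library with Arg1 and Retnla. No fit of numbers 3 to 5 left that library out. In the same subset, Acads passed the threshold for p284R against p254V within M1 (edgeR adjusted p = 0.0488).

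Polarization markers also differed between genotypes in M1. In the M1 libraries of numbers 3 to 5, Nos2 was at 81.5 to 149 CPM in p284R and 17.8 to 26 in the other genotypes, Cd38 at 23.6 to 26.6 against 8.55 to 13, and Cxcl9 at 4723 to 5340 against 1339 to 3485, while the M2 marker Mrc1 was at 65.5 to 103 against 135 to 238. So 3 of 4 M1 markers were higher and 1 of 4 M2 markers lower in p284R without overlap, and the other 4 markers overlapped. With numbers 1 and 2 pooled, Nos2 (8.6 to 25.6 against 3.01 to 19.2), Cd38 and Mrc1 overlapped. At number 1, Nos2 was higher in p284R (25.6 CPM) than in p254I and p254V (19 and 19.2). At number 2, so were Nos2 (8.6 against 3.01 and 4.92), Cxcl9 (1777 against 979 and 1367) and Cd38 (19.1 against 17.9 and 13.6). Mrc1 was lower there (178 against 212 and 219). At number 1, p284R was not the highest for Cxcl9 or Cd38, nor the lowest for Mrc1. The 5 genes above were also read number by number. At number 2 in M1, Acads (36.2 against 45 CPM), Decr1 (25.8 against 30.7) and Etfb (6.69 against 8.5) were lower in p284R than in p254I. Ech1 was lower too (67.4 against 74.6), and Pparg was not (37 against 35.7). At number 5, Etfb (6.99 against 6.88) and Ech1 (71.5 against 70.9) were not lower, while Pparg (30.9 against 49.4), Decr1 and Acads were. All 5 genes with the smallest p fell in M1 against M0, and the part of the marker difference in their values was not tested.

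Ech1 had -0.13 (-0.24 to -0.02), Decr1 -0.11 (-0.22 to -0.003), Etfb -0.19 (-0.38 to 0.00048) and Acads -0.20 (-0.40 to 0.01), with edgeR adjusted p from 0.633 to 0.77. Number by number within M1, Decr1 and Acads were lower in p284R than in p254I at 5 of 5 numbers, and Pparg, Ech1 and Etfb at 4 of 5. With the replicate number as a block, 0 members were called in any genotype comparison. Over mice, with M0, M1 and M2 averaged and the pairing by number not used, a two-sided exact permutation test of 5 against 5, which can give no p below 0.0079, gave its smallest value among the 120 member comparisons for Acat1 in p284R against p254V (difference -0.09 in log2(CPM + 1), exact p = 0.0317 before any adjustment).

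**Figure D5:**
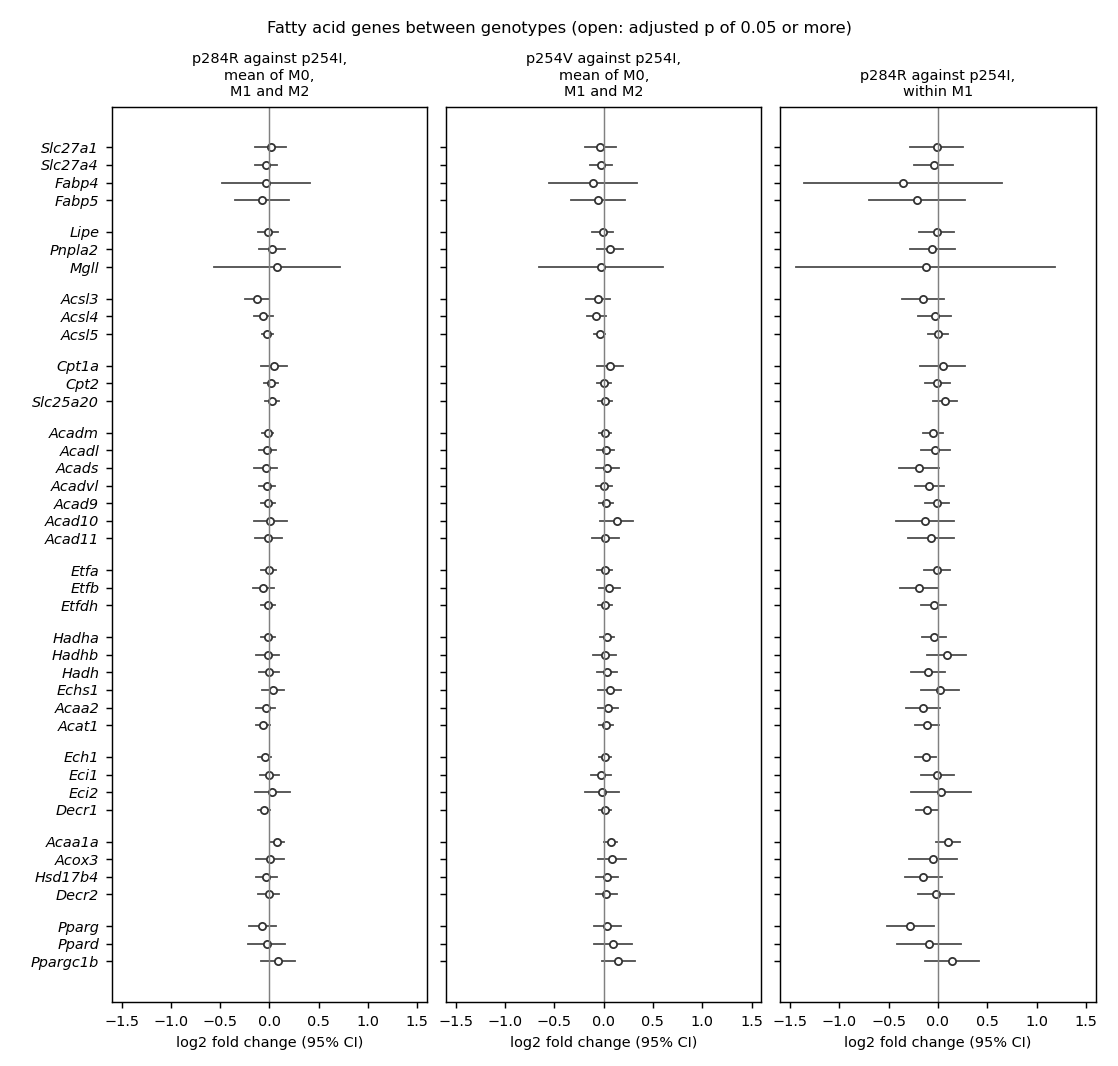
Log2 fold change with 95% confidence interval for each of the 40 members between genotypes: p284R against p254I and p254V against p254I as the mean of M0, M1 and M2, and p284R against p254I within M1. No point is filled because no adjusted p is under 0.05, and the widest intervals belong to Mgll and Fabp4, whose M1 levels are near 1 CPM.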

How the data were processed

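RNA was sequenced as stranded single-end libraries from 45 cultures of 15 mice. Per the labels and the study's methods, the authors trimmed reads with Trim Galore and aligned them with HISAT2 to mm10, while the series' design text names Cutadapt and STAR. The counting tool, annotation and strand setting are not given in the sources used here. The authors deposited raw read counts for 29307 genes and a CPM table of 11900 genes with symbols. All CPM values gave back the deposited count as whole reads within 0.05 (100%). Libraries held 17239009 to 43740283 counts, with TMM factors of 0.939 to 1.10.

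Members and lists were chosen with earlier results of these data known. Counts of all 45 libraries were fitted with edgeR 4.0.16 in R 4.3.3 (filterByExpr over 9 groups, TMM, robust quasi-likelihood test), after a test on simulated data, and p-values were adjusted by Benjamini-Hochberg over 12905 genes. Polarization effects were the mean over genotypes. Standard errors and 95% intervals are of the log2 fold change. Groups came from the sample labels. The 5 libraries of a group came from separate mice, and what the replicate number stands for beyond the mouse is not given in the sources used here.

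The genes given in full were members called with an absolute log2 fold change of at least 1, up to 10 per direction, 20 canonical steps whatever their values, and for genotype the 5 members with the smallest p in 3 comparisons. Libraries of 1 genotype that share a number were taken as 1 mouse across M0, M1 and M2. Over 8404 genes, deviations from group means correlated above 0.1 in 37 of 45 same-mouse pairs (median 0.313). Between genotypes, pairs of the same number did so in 15 of 15 in M0, 15 of 15 in M1 and 13 of 15 in M2. Their medians were 0.697, 0.517 and 0.445, higher than for same-mouse pairs. Same-mouse pairs share a number too, so these values do not tell the mouse apart from the number.

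Alternatives were DESeq2 1.42.0, DESeq2 size factors, limma-voom (limma 3.58.1), 2 other filters, replicate or mouse blocks, only the libraries compared, sums of each mouse's counts, and fits that left out 1 mouse at a time. Chosen after seeing the data were replicate numbers 3 to 5 only, reads recovered from CPM, mouse as a block for interactions, and the fit without 1 M1 library. Repeats of 50-base stretches between transcripts came from GENCODE M21 (GRCm38), promoter windows and printed sequences from RefSeq GRCm38.p6. A further motif is not reported here.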

Additional observations from a re-analysis of the deposited data

Results flagged for a closer look

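In 12 of 360 groups of 5 mice (3.33%), 1 library lay far from the other 4 of its group for a member, by Dixon's criterion, which chance alone meets in about 1 in 20 groups. Lower than the other 4 were Cpt2 in p284R M0 mouse 2 (23.1 CPM against 25 to 25.5), Acad10 in p254V M2 mouse 2 (3.94 against 5.38 to 5.84), Hadha in p254I M2 mouse 2 (168 against 195 to 205), Echs1 in p254I M0 mouse 4 (44.9 against 58.6 to 63.9), Acaa1a in p254V M1 mouse 1 (97.4 against 104 to 106), Acox3 in p254V M2 mouse 2 (138 against 180 to 196) and Ech1 in p254V M2 mouse 2 (89.5 against 107 to 114). Higher were Slc25a20 in p284R M1 mouse 1 (50.5 CPM against 46.9 to 47.8), Acads in p254V M0 mouse 1 (61.5 against 51.3 to 54.1), Acsl4 in p254V M0 mouse 2 (121 against 104 to 108), Ppard in p284R M2 mouse 2 (23.4 against 18.6 to 19.8) and Ppargc1b in p254V M1 mouse 1 (22.1 against 19.4 to 20.1). The p254V M2 library of mouse 2 accounts for 3 of the 12.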

How the results depend on the processing

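Over 27 alternatives, 1051 of 1080 member values for M1 against M0, 1064 of 1080 for M2 against M0 and 1071 of 1080 for M1 against M2 kept their direction and their side of the threshold, with 9, 1 and 0 calls lost, 18, 3 and 7 gained and 2, 12 and 2 changes of sign. The 9 lost calls were Slc25a20 in M1. With replicate numbers 3 to 5 only, the sign changed for Hadh (-0.061) and Acox3 (0.043) in M1 against M0, for Acox3 (0.026), Acsl3 (-0.0062), Fabp4 (0.278), Slc27a4 (-0.0069) and Mgll (0.489) in M2 against M0, and for Eci1 (0.017) and Eci2 (0.094) in M1 against M2. Of these, Acox3 in M2 was called with all libraries and Mgll in M2 only with numbers 3 to 5. Mgll in M2 against M0 also turned positive with limma-voom (0.089), the replicate number as a block (0.017), mouse as a fixed block (0.033) and mouse as a random block (0.094), uncalled each time. With 1 mouse left out, Acsl4 in M2 against M0 ran from -0.049 to 0.0070, uncalled. The cause of these changes was not tested. Requiring a log2 fold change of at least 1 left 2 members higher and 5 lower in M1, 1 and 1 in M2, and 1 and 7 in M1 against M2. With 1 mouse left out, the counts ran from 10 to 13 higher and 16 to 16 lower in M1, 23 to 24 and 8 to 8 in M2, and 10 to 11 and 24 to 24 in M1 against M2. With the replicate number as a block they were 14 and 16, 24 and 8, and 10 and 25, and with mouse as a block 14 and 16, 24 and 8, and 10 and 24. The blocks called 0 members in every genotype comparison they were fitted for. With replicate numbers 3 to 5 only, 1 member was called for p284R against p254I within M1 (Pparg) and 1 for p284R against p254V within M1 (Acads). In M1, where the medians of Fabp4 and Mgll were 1.24 and 1.03 CPM, their 95% intervals between genotypes reached past a log2 fold change of 1 in size in all 3 comparisons.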
